A study of Mus musculus with 6 samples.

Results

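Integrins and laminins are the receptors and the ligands by which an epithelial cell holds its basement membrane. Their subunit genes were read in 6 RNA-seq libraries of 4T1, a mouse mammary carcinoma line of BALB/c origin, here with genes for luciferase and red fluorescent protein. The members are all genes of the deposited table whose symbols begin with Itga, Itgb, Lama, Lamb or Lamc and name a subunit, and they were chosen by symbol, not by value. There were 35 of them, 24 integrin and 11 laminin subunits, among 13912 genes. The same rule finds 37 genes in the GENCODE M21 annotation, and Itgad and Itgb8 were not among the genes tested. The cultured group was 3 libraries of the line that had not been injected, and the tumour group was 3 libraries of the same line taken from mammary gland tumours by fluorescence-activated sorting. Per the labels the strain of all 6 is BALB/c and the tumours are of a model abbreviated MIND, an intraductal model by the title of the series. Sorting was stated for the tumour libraries alone. The titles of all 3 tumour libraries carry the word Right, and those of the cultured libraries do not. All libraries thus come from 1 line with 1 pair of reporters. The labels do not state separate animals or separate cultures within a group, and p-values therefore rest on a spread between libraries that could be technical.

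Reads recovered from the deposited values numbered 35448588 to 41469090 per library. The carcinoma identity of the line was present in both groups, with the epithelial gene Epcam at a mean of 6.63 log2 CPM (a read count scaled to the size of its library, on a log2 scale) in culture and 6.82 in the tumour libraries. Of 16 epithelial carcinoma markers 1 was higher and 7 were lower in the tumour libraries, with summed levels of 3107 to 3852 CPM in culture and 2864 to 3313 CPM there. The tumour libraries also held RNA of genes that mark other cells. All 12 listed macrophage markers were higher there (5 had at least 61 cultured reads, the other 7 fewer), with summed levels of 28.0 to 39.4 CPM in culture and 6203 to 9081 CPM in the tumour libraries. All 10 fibroblast markers were higher too (2 had as many cultured reads), with sums of 23.6 to 51.6 and 6249 to 8063 CPM. Most of the cultured sum was Pdgfra, with 4024 reads over the cultured libraries and a log2 change of 1.15. In RNA from mixed cells, a change in the number of cells of a type and a change in RNA per cell cannot be told apart.

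An integrin is a dimer of 1 alpha and 1 beta chain, and the alpha chain largely sets the ligand. Dimers of beta1 with alpha1, alpha2, alpha10 or alpha11 bind collagen, those of alpha3, alpha6 and alpha7 bind laminin, and many dimers of alphaV or alpha5 bind the RGD peptide of fibronectin, vitronectin and osteopontin. Dimers of beta2 and beta7 serve leukocyte adhesion. Laminins are cross-shaped trimers of an alpha, a beta and a gamma chain. Trimers with alpha3 anchor epithelia and are bound by alpha6 beta4 in hemidesmosomes, trimers with alpha5 are widespread in epithelial basement membrane, and trimers with alpha4 or alpha2 belong to vessels, muscle and mesenchyme.

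By limma with Benjamini-Hochberg adjustment over all genes at 0.05, 18 of the 35 members were higher in the tumour libraries, 1 was lower and 16 were not called. Among all genes tested 48.2% were called in either direction, 29.5% higher and 18.8% lower. After quantile normalization the members split into 16 higher and 3 lower, and all genes into 2992 higher and 5513 lower, against 4099 and 2612 as deposited. The median log2 change was 1.35 over the members and 0.08 over all genes. These counts depend in part on which genes the table lists. No gene in it had fewer than 61 reads over the 6 libraries, and 10 members (Itga4, Itga8, Itga9, Itga11, Itgal, Itgam, Itgax, Lama1, Lama2 and Lama4) had fewer than 61 over the 3 cultured libraries, so that their place in the table rests in part on their tumour reads, and nothing is read from their number. Of the other 25 members, 8 were higher, 1 was lower and 16 were not called, beside 18.9% higher and 22.3% lower among the 11696 genes with as many cultured reads. The 8 were Itga1, Itga5, Itga10, Itgb2, Itgb3, Itgb4, Itgb5 and Lamb2. By class, collagen receptors were higher in 3 of 4 cases, laminin receptors in 1 of 4, RGD receptors in 4 of 7 with 1 lower, leukocyte receptors in 6 of 8, and laminin chains in 4 of 11. These class counts include the 10 members with few cultured reads. Among members with at least 61 cultured reads the counts higher were 2 of 3, 1 of 4, 3 of 6 with 1 lower, 1 of 3 and 1 of 8, in the same order. The groups did not overlap in 22 members, as in 59.8% of all genes.

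**Figure D1:**
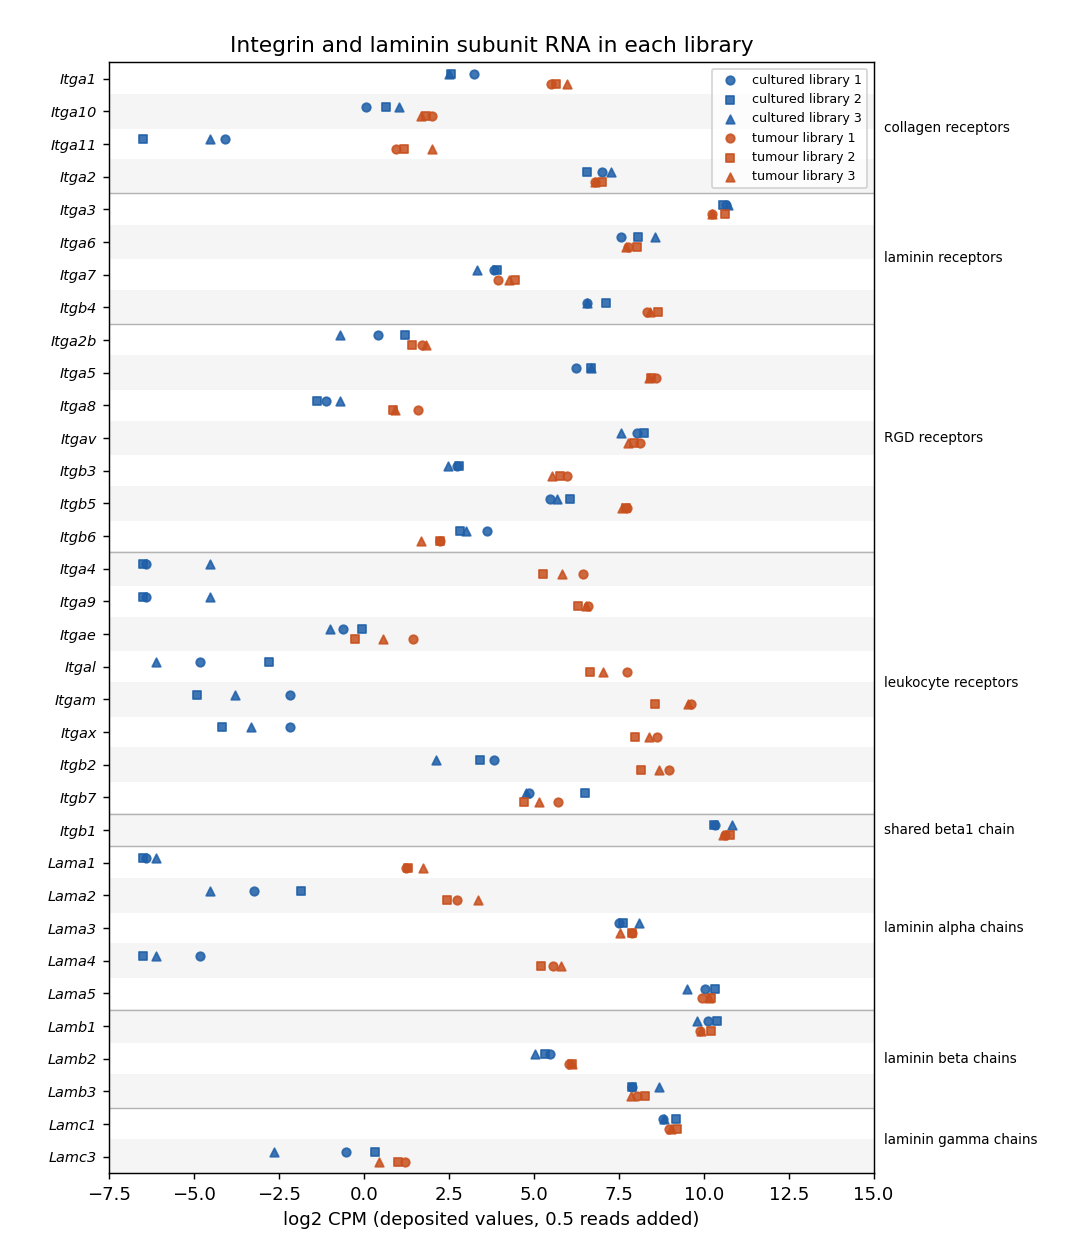
Level of the subunit genes reported in each library, as log2 CPM on the horizontal axis, with genes in rows by class, cultured libraries in blue and tumour libraries in orange. Abundant chains such as Itga3, Itgb1, Lama5 and Lamb1 lie near 10 in both groups, while 5 leukocyte alpha chains, Itga8, Itga11, Lama1, Lama2 and Lama4 lie below 0 in every cultured library and above 0 in every tumour library.

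**Figure D2:**
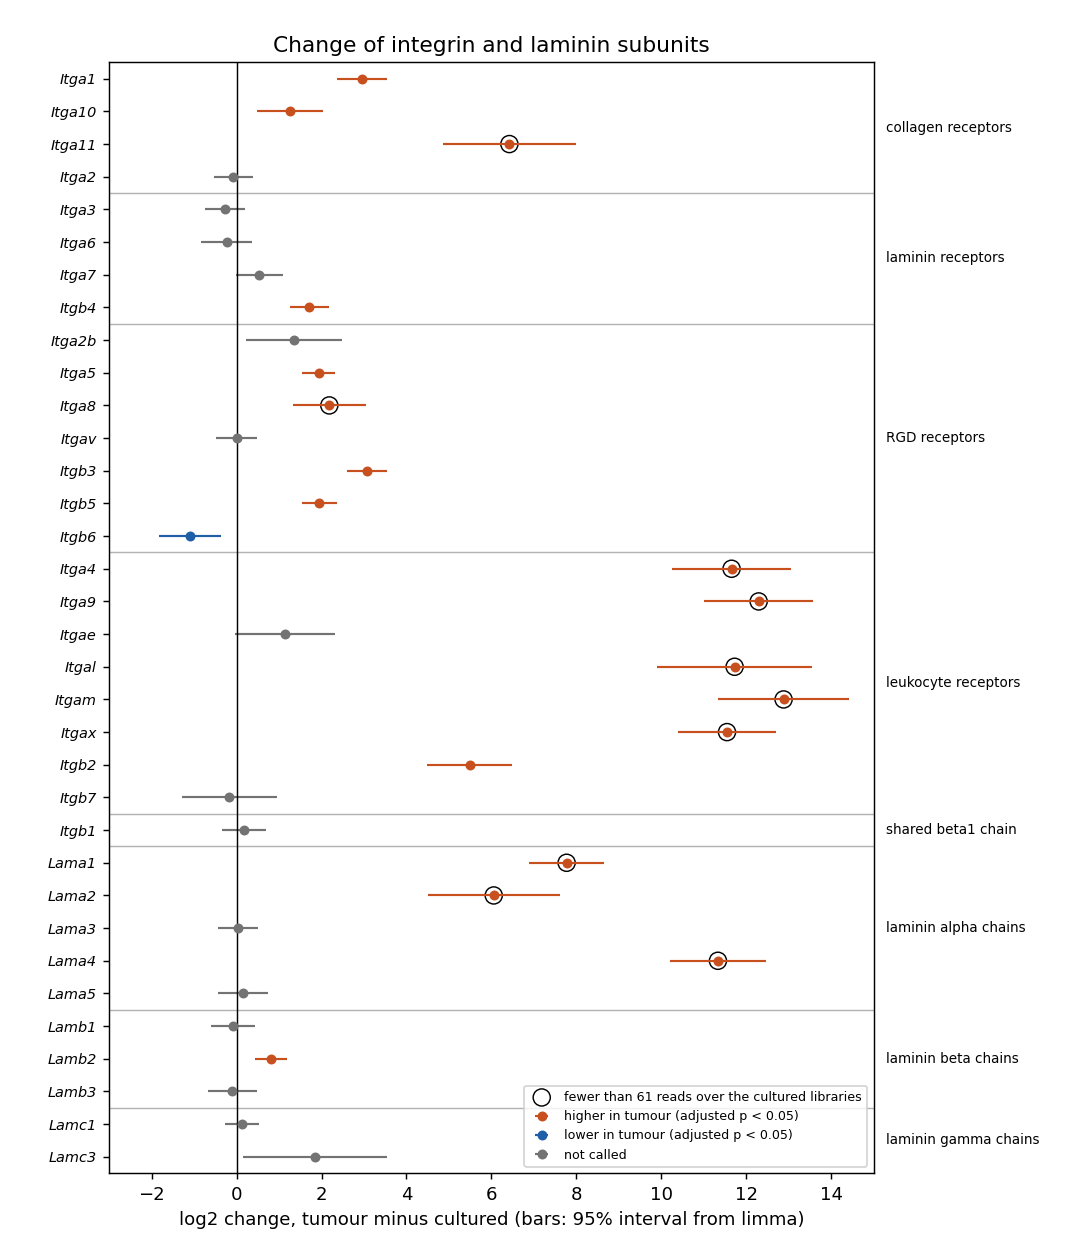
Log2 change of the subunit genes reported, tumour minus cultured, with the 95% interval from limma (3 libraries a group), coloured by call. Circled genes had fewer than 61 cultured reads, and the genes without a circle that lie to the right of 0 with a call are Itga1, Itga5, Itga10, Itgb2, Itgb3, Itgb4, Itgb5 and Lamb2.

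Lamb3 and Lama3, chains of epithelial laminin, were well expressed in both groups, and neither passed the test. Lamb3, which encodes the beta3 chain, was at 7.88, 7.89 and 8.68 log2 CPM in cultured libraries 1, 2 and 3 and at 8.02, 8.28 and 7.85 in tumour libraries 1, 2 and 3. Its change was -0.10 (95% interval -0.68 to 0.48, limma adjusted p = 0.769), and the groups overlapped. Lama3, the alpha3 chain, was at 7.49, 7.64 and 8.10 against 7.88, 7.90 and 7.53 (change 0.03, interval -0.45 to 0.50). Cultured library 3 was the highest of the cultured libraries for both chains. The intervals of the 2 genes reach from -0.68 to 0.50, and for each gene a change within its own interval is not excluded.

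Ratios between subunits were compared within libraries. Lama5 minus Lamc1 was 1.01 ± 0.31 on the log2 CPM scale in culture and 1.03 ± 0.08 in the tumour libraries (SD, n = 3, exact permutation test, two-sided, p = 1), and Lamb1 minus Lamc1 was 1.16 ± 0.19 and 0.94 ± 0.06 (SD, n = 3, exact permutation p = 0.2). Both ratios overlapped between the groups. With 3 libraries against 3 this exact permutation test cannot go below p = 0.1, and 21 such subunit pairs were compared, for which a raw p = 0.1 gives an adjusted p = 0.131, so none of the differences between pairs can pass a threshold of 0.05.

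Chains of the alpha5 laminins did not pass the test either. Lama5 was at 10.03, 10.35 and 9.50 log2 CPM in culture, against 9.94, 10.21 and 10.15 in the tumour libraries (change 0.14, interval -0.44 to 0.73, limma adjusted p = 0.665). Lamb1, the beta1 chain of most laminins, was at 10.12, 10.39 and 9.79 against 9.88, 10.23 and 9.93 (change -0.09, interval -0.61 to 0.43). Lamc1, the widespread gamma1 chain, was at 8.81, 9.18 and 8.84 against 8.96, 9.22 and 9.03 (change 0.13, interval -0.28 to 0.54), and was called higher when scaled to epithelial markers (0.72, adjusted p = 0.0307). For each of these chains the 2 groups overlapped. Per kilobase of exon, Lama5 made up 80.6 ± 8.14% of laminin alpha chain RNA in culture and 79.4 ± 2.54% in the tumour libraries (SD, n = 3).

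Lamb2, the beta2 chain of vessel and neuromuscular laminins, was the 1 laminin chain with ample cultured reads that rose. It stood at 5.49, 5.33 and 5.03 log2 CPM in culture, against 6.04, 6.12 and 6.12 in the tumour libraries, with every tumour library above every cultured library. The change was 0.81 (SE 0.16, limma adjusted p = 0.00467), or 1.75-fold. It remained the scarcest of the beta chains per kilobase of exon, at 3.97 ± 0.693% of their RNA in culture and 7.24 ± 0.769% in the tumour libraries (SD, n = 3, exact permutation p = 0.1, the smallest possible). Lamc3, a gamma chain of low level, was at -2.66 to 0.32 in culture and 0.44 to 1.21 in the tumour libraries and was not called (change 1.84, limma adjusted p = 0.0712). It was called without cultured library 2 (change 2.48, adjusted p = 0.0233), scaled to epithelial markers (2.43, 0.00917) and on log2 of CPM plus 1 (0.81, 0.0340), and after quantile normalization its change was -0.94 (0.190).

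Laminin alpha chains of vessels and mesenchyme were nearly absent from culture. Lama4, the alpha4 chain of endothelial and mesenchymal laminins, had 1, 0 and 0 reads in the cultured libraries and 5.55, 5.21 and 5.79 log2 CPM in the tumour libraries. The ratio of CPM was 5666 (95% counting interval 1016 to 223824, which covers counting error only). Lama2, the alpha2 chain of muscle and nerve, had 17 cultured reads, 12 of them in library 2, and reached 2.43 to 3.35 log2 CPM in the tumour libraries (change 6.06, SE 0.67). Lama1, the alpha1 chain of early embryonic laminin, had 0 reads in all 3 cultured libraries and was at least 111-fold higher in the tumour libraries, where it stood at 1.25 to 1.74 log2 CPM; the bound takes 3 reads over the cultured group. Each of these chains was a small part of the tumour pool, with Lama4 at 3.18 ± 0.716% of alpha chain RNA per kilobase, Lama2 at 0.375 ± 0.128% and Lama1 at 0.230 ± 0.0447% (SD, n = 3). Fibroblast markers moved with them, as given above, with Dpt at 0 cultured reads. The 10 endothelial and pericyte markers were all higher (2 had at least 61 cultured reads), with Emcn, Cldn5 and Rgs5 at 0 in culture. Their sums were 17.4 to 32.0 CPM in culture and 177 to 231 CPM in the tumour libraries. Most of the cultured sum was Mcam, with 2621 reads over the cultured libraries and a log2 change of 1.31. The part of fibroblasts, endothelial cells and pericytes in the levels of the 3 chains was not tested.

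**Figure D3:**
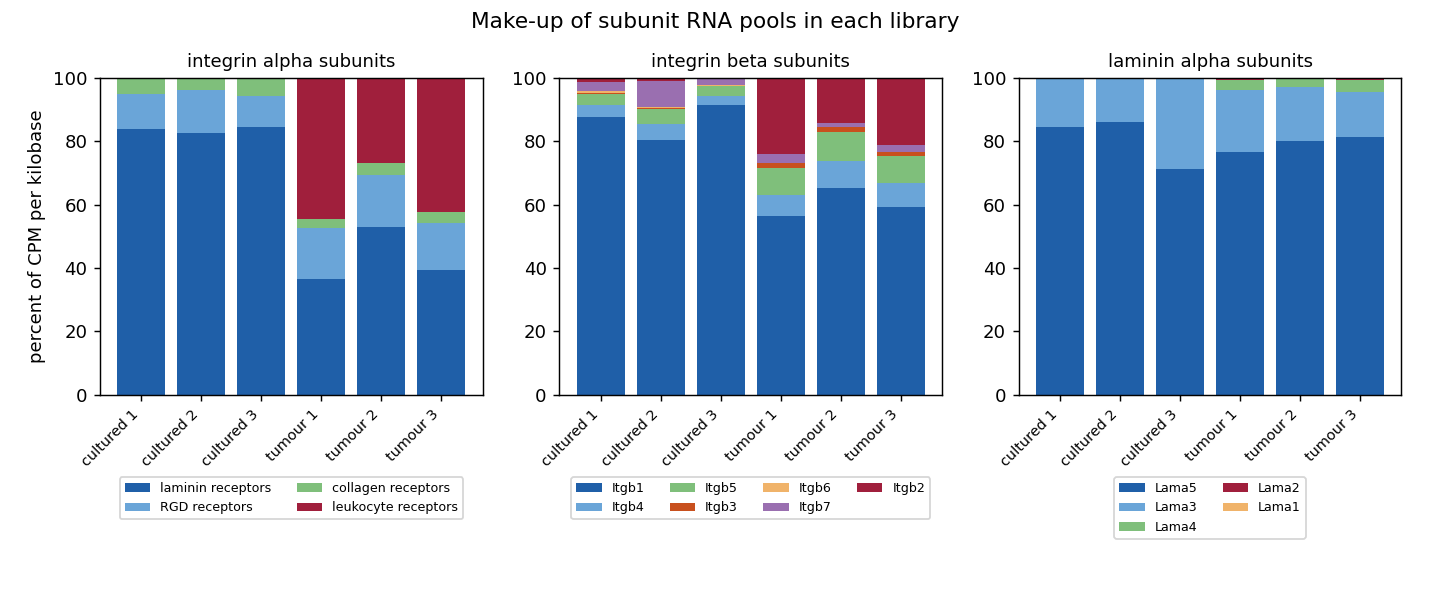
Share of each chain or class in the summed CPM per kilobase of exon of integrin alpha, integrin beta and laminin alpha subunits, 1 stacked bar for each library. Laminin receptor chains held 82.5 to 84.6% of integrin alpha RNA in cultured libraries and 36.5 to 53.0% in tumour libraries, where leukocyte receptor chains held 26.9 to 44.6%, while Lama5 led the laminin alpha pool in all 6 bars.

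Among laminin receptors the beta4 chain rose and its alpha6 partner did not pass the test. Itgb4, whose long cytoplasmic tail ties laminin to keratin in hemidesmosomes, was at 6.57, 7.11 and 6.55 log2 CPM in culture, against 8.33, 8.64 and 8.41 in the tumour libraries. Each tumour library was thus above all cultured libraries, and the change was 1.72 (SE 0.19, limma adjusted p = 0.000225), or 3.28-fold. Itga6 was at 7.58, 8.07 and 8.58 in culture, against 7.78, 8.04 and 7.70 in the tumour libraries, inside the cultured range, with a change of -0.24 (interval -0.83 to 0.36, limma adjusted p = 0.481).

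The order of these partners turned over. Itga6 minus Itgb4 was 1.003, 0.962 and 2.024 in cultured libraries 1, 2 and 3 and -0.55, -0.61 and -0.71 in tumour libraries 1, 2 and 3, on the log2 CPM scale. The mean difference fell by 1.95 with no overlap between the groups (exact permutation test, two-sided, p = 0.1, adjusted p = 0.131). A ratio within a library is free of the scaling of that library, though quantile normalization can change it. Against the beta1 chain, the other partner of alpha6, Itga6 minus Itgb1 was -2.41 ± 0.29 in culture and -2.82 ± 0.07 in the tumour libraries (SD, n = 3), with overlap. The basal keratin genes Krt14 and Krt17 moved with Itgb4, from means of 5.39 and 2.55 log2 CPM in culture to 7.52 and 5.98. Both belong to the list of 9 smooth muscle and myoepithelial markers, of which 6 were tested and all 6 were higher. Of the 6, 3 had at least 61 cultured reads, Krt14 and Krt17 among them. Sums of the 6 were 30.1 to 110 CPM in culture and 520 to 665 CPM in the tumour libraries. Whether Itgb4 came from the carcinoma cells was not tested. GENCODE M21 places a long noncoding RNA on the opposite strand over 7.66% of the exon bases of Itgb4, and the strand of the libraries is not given in the sources used here.

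Itga3, the main laminin receptor chain of this line, was at 10.65, 10.57 and 10.70 log2 CPM in culture, against 10.25, 10.63 and 10.24 in the tumour libraries. Its change was -0.27 (interval -0.75 to 0.21, limma adjusted p = 0.311), and tumour library 2 lay within the cultured range. After quantile normalization it was called lower (change -0.62, adjusted p = 0.0458), and scaled to epithelial markers its change was 0.32 (0.421). Per kilobase it made up 74.9 ± 2.18% of integrin alpha RNA in culture and 38.4 ± 8.02% in the tumour libraries (SD, n = 3), at summed alpha levels of 374 ± 19.1 and 614 ± 38.4 CPM per kilobase. Its own level was 280 ± 12.3 and 234 ± 37.1 CPM per kilobase. Itga7, the laminin receptor chain of muscle, was low at 3.82, 3.90 and 3.33 against 3.95, 4.44 and 4.26 and was not called (change 0.53, interval -0.02 to 1.09), but was called when scaled to epithelial markers (1.12, adjusted p = 0.00411). Itgb1, the beta chain shared by most matrix receptors, was at 10.32, 10.31 and 10.82 in culture, against 10.63, 10.78 and 10.58 in the tumour libraries (change 0.17, interval -0.35 to 0.70). It was the leading beta chain in every library, at 86.5 ± 5.74% of beta chain RNA per kilobase in culture and 60.2 ± 4.57% in the tumour libraries (SD, n = 3).

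**Figure D4:**
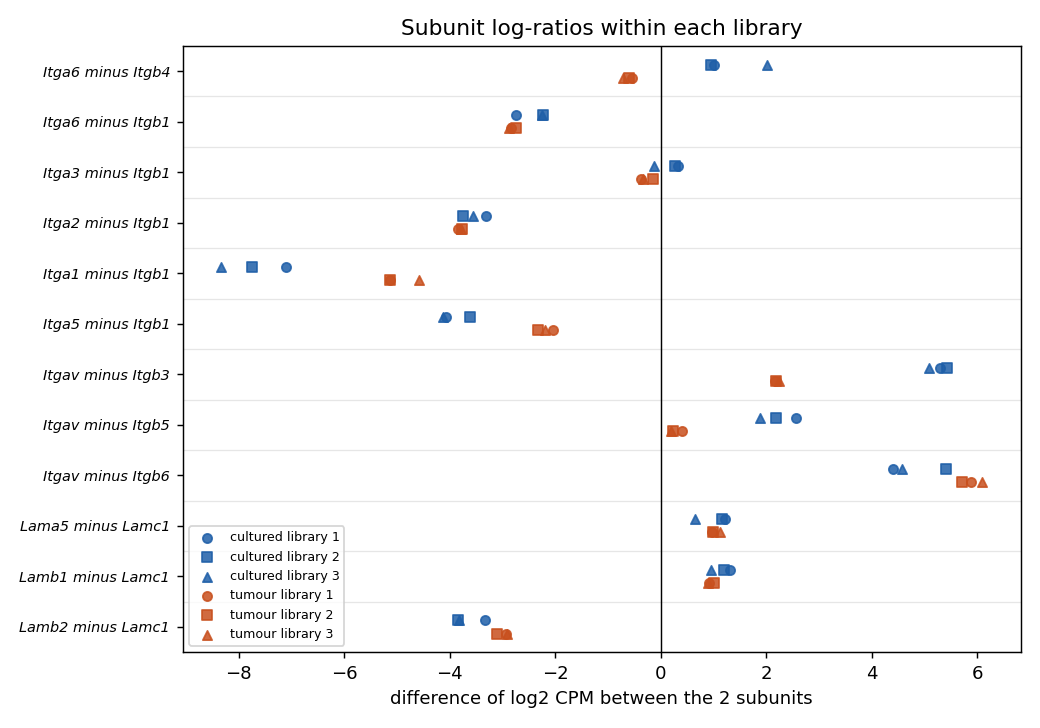
Difference of log2 CPM between the 2 named subunits in each library, cultured in blue and tumour in orange, for integrin partners and laminin chains expressed in both groups. Itga6 minus Itgb4 lies above 0 in the 3 cultured libraries and below 0 in the 3 tumour libraries, and Itgav minus Itgb3 and Itgav minus Itgb5 lie lower in tumour libraries, while the laminin ratios other than Lamb2 minus Lamc1 overlap.

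In RGD receptors the beta3 and beta5 chains and alpha5 rose, alphaV did not pass, and beta6 fell. Itga5, the alpha chain of the main fibronectin receptor, was at 6.25, 6.70 and 6.69 log2 CPM in culture, against 8.59, 8.46 and 8.39 in the tumour libraries (change 1.93, SE 0.17, limma adjusted p = 4.94e-05). Itgb5, a partner of alphaV in binding vitronectin, was at 5.48, 6.05 and 5.68 against 7.73, 7.72 and 7.58 (change 1.94, SE 0.18, adjusted p = 6.26e-05). Itgb3, the beta chain of the vitronectin receptor of vessels, osteoclasts and platelets, was at 2.75, 2.81 and 2.47 against 5.97, 5.76 and 5.53 (change 3.07, SE 0.20, adjusted p = 9.60e-06). In all 3 genes the tumour libraries lay above the cultured ones with gaps larger than the spread within either group. Itgav, the alpha chain that beta3, beta5, beta6 and beta8 share, was at 8.04, 8.23 and 7.56 in culture, against 8.13, 7.95 and 7.78 in the tumour libraries (change 0.01, interval -0.48 to 0.49, adjusted p = 0.985).

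The distances of the beta partners from alphaV changed, with Itgav above each of them in all 6 libraries on the log2 CPM scale. That scale is not corrected for exon length. Per kilobase of exon, Itgav stood above Itgb5 in culture, at 23.4 ± 5.30 against 15.2 ± 3.15 CPM (SD, n = 3). In the tumour libraries it stood below Itgb5 on this measure, at 23.2 ± 2.83 against 57.8 ± 3.26 CPM (SD, n = 3). Itgav minus Itgb3 went from 5.27 ± 0.17 to 2.20 ± 0.05 and Itgav minus Itgb5 from 2.21 ± 0.34 to 0.27 ± 0.11, while Itgav minus Itgb6 went from 4.79 ± 0.54 to 5.90 ± 0.20 (log2 CPM, SD, n = 3). None of the 3 ratios overlapped between the groups (exact permutation p = 0.1 each). The change of Itgav minus Itgb3 was -3.07 as deposited, -2.68 after quantile normalization and -2.89 on log2 of CPM plus 1. That of Itgav minus Itgb6 was 1.10 as deposited and 2.38 after quantile normalization. Itgb6, a chain of epithelia that binds latent TGF-beta, was at 3.63, 2.82 and 3.00 in culture, against 2.24, 2.24 and 1.68 in the tumour libraries and was the 1 member that fell (change -1.10, SE 0.31, limma adjusted p = 0.0211). That call was lost without cultured library 1 (change -0.86, adjusted p = 0.0548), without tumour library 1 (-1.19, 0.0529), without tumour library 3 (-0.91, 0.0956) and when libraries were scaled to epithelial markers (-0.51, 0.254). Itga8, a receptor chain for nephronectin, had 57 cultured reads and was higher at 0.86 to 1.58 log2 CPM in the tumour libraries (change 2.18, adjusted p = 0.00194), though after quantile normalization its change was -0.42 (adjusted p = 0.387). Itga2b, the platelet chain, was at -0.70 to 1.19 in culture and 1.42 to 1.83 in the tumour libraries and was not called (change 1.35, adjusted p = 0.0524). It was called with voom weights (adjusted p = 0.0464), on log2 of CPM plus 1 (0.0301), scaled to epithelial markers (0.00417) and without cultured library 2 (0.0126), and after quantile normalization its change was -0.76. The 3 platelet markers tested of 8 listed had summed levels of 1.38 to 2.64 CPM in culture and 37.5 to 78.0 CPM in the tumour libraries, and their part in the levels of Itgb3 and Itga2b was not tested. Most of the tumour sum was Pf4, with 5450 reads over the tumour libraries against 607 for Ppbp and 56 for Gp1ba. Pf4 and Ppbp were called higher, and Gp1ba was not called (change 1.11, limma adjusted p = 0.0659).

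Ligands of these receptors were mostly higher. Of 13 genes tested of a list of RGD ligands, 10 were higher and 0 lower, beside 29.5% and 18.8% of all genes, with a median log2 change of 2.18. Among the 11 with at least 61 cultured reads 8 were higher and 0 lower, beside 18.9% and 22.3% of all genes with as many. Spp1, which encodes osteopontin, had a change of 4.73 (SE 0.29) from a cultured mean of 7.31 log2 CPM, and Tnc, tenascin C, one of 5.82 (SE 0.25) from 4.89. Postn and Fbn1, matrix proteins of fibroblasts, had changes of 8.15 and 7.78 from cultured means of 0.69 and 0.41.

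Among collagen receptor chains Itga1 rose and Itga2, the more abundant, did not pass the test. Itga2, the collagen receptor chain of epithelia, was at 7.01, 6.56 and 7.26 log2 CPM in culture, against 6.79, 7.02 and 6.80 in the tumour libraries (change -0.07, interval -0.54 to 0.39, limma adjusted p = 0.786). Itga1, which encodes the alpha1 chain typical of mesenchymal and some immune cells, was at 3.22, 2.56 and 2.49 against 5.50, 5.65 and 5.99 (change 2.95, SE 0.26, adjusted p = 4.82e-05), or 7.75-fold. The 2 genes lie side by side on chromosome 13 of GRCm38, Itga2 from 114833081 to 114932100 and Itga1 from 114953096 to 115101964, with 21 kb between them. Tumour levels of Itga1 stood above the cultured range in every library, while those of Itga2 stood inside it, and Itga1 remained the scarcer at 2.85 ± 0.51 CPM per kilobase of exon against 16.4 ± 1.52 (SD, n = 3) in the tumour libraries.

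Both remaining collagen receptor chains were rare. Itga11, a receptor of fibrillar collagen on fibroblasts, had 2, 0 and 1 reads in culture, against 71, 92 and 151 in the tumour libraries, a CPM ratio of 111 (95% counting interval 37.7 to 543). Itga10, a chain known from cartilage, had 44, 70 and 71 reads in culture, against 147, 144 and 121 in the tumour libraries (log2 CPM change 1.26, SE 0.34, limma adjusted p = 0.0171). Leaving out any 1 of the tumour libraries ended the call for Itga10, at adjusted p = 0.0811, 0.0565 and 0.0543 for libraries 1, 2 and 3, and its change was -0.75 (0.0866) after quantile normalization. Another annotated gene covers 33.5% of the exon bases of Itga10 on the same strand, and how reads there were assigned is not given in the sources used here. Of the other collagen receptors, the fibroblast receptor Mrc2 had a change of 6.61 and the leukocyte receptor Lair1, with 0 cultured reads, stood at a tumour mean of 6.11 log2 CPM, while Ddr1 and Ddr2, the discoidin domain kinases, had changes of -0.39 and -1.01 that were not called (adjusted p = 0.175 and 0.0621). Both were called lower with libraries centred on the median and without cultured library 3.

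The 5 largest fitted changes of all members were those of leukocyte alpha chains. Itgam, the CD11b chain of myeloid cells, had 9, 1 and 2 reads in the cultured libraries and 9.64, 8.57 and 9.55 log2 CPM in the tumour libraries (change 12.88, SE 0.66). Itgax, the CD11c chain of macrophages and dendritic cells, had 9, 2 and 3 reads and then 8.63, 7.98 and 8.38 log2 CPM (change 11.55, SE 0.49). Itgal, the CD11a chain found on most leukocytes, had 1, 6 and 0 reads and then 7.73, 6.65 and 7.05 (change 11.73, SE 0.78). Since these 3 genes were nearly at 0 in culture, their fitted changes depend on the 0.5 reads added to each value. They lie in a cluster on chromosome 7 of GRCm38, where Itgam spans 128062640 to 128118491 and Itgax starts 11.1 kb beyond it, at 128129547, while Itgal lies 728 kb before Itgam. Another annotated gene that was not tested covers 68.7% of the exon bases of Itgam on the same strand, so that its level depends on how shared reads were counted.

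Of 3 further leukocyte alpha chains, 2 were nearly at 0 in culture and Itgae was low in both groups. Itga4, the VCAM1 receptor chain of lymphocytes and monocytes, had 0, 0 and 1 cultured reads and stood at 6.44, 5.26 and 5.82 log2 CPM in the tumour libraries, a CPM ratio of 7330 (95% counting interval 1315 to 289556). Itga9, its closest relative, which binds tenascin C and osteopontin and is found on neutrophils, endothelium and muscle, also had 0, 0 and 1 reads and stood at 6.60, 6.29 and 6.54, a ratio of 10933 (interval 1962 to 431856). Itgae, the E-cadherin receptor chain of mucosal T cells and some dendritic cells, was at -0.99 to -0.06 in culture and -0.28 to 1.45 in the tumour libraries and was not called (change 1.13, limma adjusted p = 0.101). It was called without tumour library 2, at 1.56 (adjusted p = 0.0457), and scaled to epithelial markers, at 1.72 (0.0175), and after quantile normalization its change was -1.67 (0.0292).

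Both leukocyte beta chains had reads in culture, where their alpha partners had few. Itgb2, the CD18 chain that pairs with the products of Itgal, Itgam and Itgax, was at 3.81, 3.43 and 2.11 log2 CPM in culture, or 1235 reads against 7, 12 and 14 for those partners. In the tumour libraries it stood at 8.98, 8.15 and 8.68 (change 5.49, SE 0.43, limma adjusted p = 2.77e-05). Itgb7, the beta chain of gut-homing receptors, was at 4.85, 6.49 and 4.75 in culture, against 5.72, 4.71 and 5.15 in the tumour libraries and did not pass (change -0.17, interval -1.29 to 0.95). Cultured library 2 was the highest of the 6 for Itgb7, and without it the change was 0.39. In culture its partner chains were low, with 1 read for Itga4 and 87 for Itgae.

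In the tumour libraries each beta2 partner stood in a narrow range against Itgb2. Itgam minus Itgb2 was 0.66, 0.42 and 0.87, Itgax minus Itgb2 was -0.35, -0.17 and -0.31, and Itgal minus Itgb2 was -1.25, -1.50 and -1.63 in tumour libraries 1, 2 and 3 (log2 CPM). Their levels moved together across these libraries. All 8 leukocyte receptor genes had their lowest tumour value in library 2, with a median log2 difference of -0.73 from the mean of the other 2, where 39.2% of all genes were lowest in that library. The 4 laminin receptor genes and the 3 laminin beta chain genes were not lowest there in any case. Macrophage markers were lowest in library 2 in 11 of 12 cases, with a median difference of -0.32, and neutrophil markers in 8 of 9, with -2.98. Endothelial and pericyte markers were lowest there in 8 of 10 cases, with -0.51, and dendritic cell markers in 6 of 8, with -0.97. Fibroblast markers were lowest there in 6 of 10 cases, with -0.35, and platelet markers in 2 of 3, with -0.61. Not all lists went this way. Lymphocyte markers were lowest there in 1 of 4 cases, with -0.20, and mast cell markers in 1 of 5, with 1.84. For smooth muscle and myoepithelial markers it was 0 of 6, with 0.24, and for epithelial carcinoma markers 5 of 16, with 0.11. Summed neutrophil markers stood at 85.5 to 100.5 CPM in culture, nearly all of it Mmp9, and at 1339 to 3966 CPM in the tumour libraries, with Retnlg, Ngp and Mmp8 at 0 in culture. Of 8 dendritic cell markers 7 were higher, each with fewer than 61 cultured reads, and Zbtb46, the 1 with more, was not called, with sums of 2.41 to 7.34 CPM in culture and 1591 to 2271 CPM in the tumour libraries and with Flt3, Clec9a and Cd209a at 0 in culture. The MHC class II genes H2-Aa and H2-Ab1 made up nearly all of the tumour sum, with 125583 and 100571 reads over the tumour libraries. The remaining markers had from 70 (Flt3) to 1527 (Ccr7) reads there. Lymphocyte markers, of which 4 of 13 were tested, summed to 5.61 to 7.86 CPM in the tumour libraries. The part of these cells in the leukocyte chains was not tested. Leukocyte receptor chains made up 0.0550 ± 0.0168% of integrin alpha RNA per kilobase in culture and 37.9 ± 9.63% in the tumour libraries (SD, n = 3).

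Leukocyte integrin genes are textbook targets of the ETS factor PU.1 in myeloid cells, so the bases before their start sites are shown for 3 genes that rose from near 0 and for Itgb7, which did not rise. The sequences are from RefSeq on GRCm38.p6, the 120 bases before the start, 5′ to 3′ on the gene's strand, with capitals for the core GAGGAA of PU.1 sites on either strand and for the AP-1 site TGANTCA; these motifs do not overlap here.
Itgam, chr7:128062520-128062639, plus strand: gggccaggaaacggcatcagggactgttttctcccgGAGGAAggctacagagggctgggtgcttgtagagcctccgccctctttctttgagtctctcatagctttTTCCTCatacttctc
Itgax, chr7:128129430-128129549, plus strand: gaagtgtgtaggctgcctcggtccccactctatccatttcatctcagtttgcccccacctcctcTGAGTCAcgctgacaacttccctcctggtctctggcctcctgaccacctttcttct
Itga4, chr2:79255306-79255425, plus strand: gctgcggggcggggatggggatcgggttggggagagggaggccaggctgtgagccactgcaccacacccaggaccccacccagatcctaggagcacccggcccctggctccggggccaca
Itgb7, chr15:102231936-102232055, minus strand: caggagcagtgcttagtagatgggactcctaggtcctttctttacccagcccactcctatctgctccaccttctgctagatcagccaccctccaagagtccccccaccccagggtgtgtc
Itgam holds the PU.1 core at 84 to 79 bases before the start and again, on the opposite strand, at 15 to 10 bases before it, and Itgax holds an AP-1 site at 56 to 50 bases. The core was found in the 250 bases before the start for 1 of 5 leukocyte receptor genes matched and for 13 of all 22 members matched. Counted by window, it was in 13 of 25 member windows, beside 23.3% of 32851 such windows. TGANTCA was found for 1 of 22 members, in 1 of 25 member windows, beside 6.75% of windows. A match is a description of letters in this window.

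Genes that carry integrin signals inside the cell were called in both directions. Of 32 adaptor and signalling genes, 9 were higher and 6 lower, near the shares of 29.5% and 18.8% among all genes, with a median log2 change of 0.15. The counts were 5 and 3 without tumour library 3 and 16 and 0 when scaled to epithelial markers. Fermt3 and Parvg, the kindlin and parvin of blood cells, had changes of 7.20 (SE 0.36) and 8.69 (SE 1.04) from 88 and 14 cultured reads. Tns1, a tensin of fibroblasts and muscle, had a change of 4.89 (SE 0.53), and Ptk2b, the FAK-related kinase, one of 2.26 (SE 0.24). Lower were Tns3, Bcar1, Fermt1, Actn1, Ptk2 and Crkl, among them Tns3, a tensin, with a change of -1.24, Fermt1, the kindlin of epithelia, with -0.81, and Ptk2, the focal adhesion kinase FAK, with -0.76 (adjusted p = 0.000579, 0.0168 and 0.00320); these 3 were named after their values were seen. Tln1, the talin that activates integrins, and Fermt2, the widespread kindlin, had changes of 0.24 and 0.02 that were not called.

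Basement membrane partners of laminin were either called higher in the tumour libraries or not called. Of 15 genes tested of 20 listed, 10 were higher and 0 lower, beside 29.5% and 18.8% of all genes, with a median log2 change of 1.51. Among the 10 with at least 61 cultured reads 5 were higher and 0 lower, beside 18.9% and 22.3% of all genes with as many. The 5 with fewer, Nid2 and Col15a1 among them, have their place in the table in part through their tumour reads. Nothing is read from their number. Nid1, the nidogen that links laminin to collagen IV, had a change of 8.01 (SE 0.52) from 72 cultured reads, and Nid2 had 0 cultured reads and a tumour mean of 4.10 log2 CPM. Col15a1 had a change of 11.33 from 7 cultured reads, and Npnt, nephronectin, one of 1.55 (SE 0.16). Hspg2 and Agrn, the heparan sulfate proteoglycans perlecan and agrin, and Col4a2 were abundant in both groups and were not called, while Col4a1 and Col18a1, also abundant in both, were called higher (changes 0.61 and 1.12, adjusted p = 0.0347 and 0.00295). Among 8 hemidesmosome and other laminin-binding genes 3 were higher and 1 lower, near the shares among all genes, namely Bcam, Cd151 (0.46, SE 0.16) and Sdc4 (0.88, SE 0.15), and Dst (-0.60, SE 0.16), which encodes the plakin BPAG1. Bcam had 52 cultured reads, and among the 7 genes with at least 61 the number higher was 2. After quantile normalization 1 gene of the list was higher and 2 were lower, and with any 1 tumour library left out 0 were called lower. Col17a1 and Plec, the other plaque genes, were not called, with changes of -0.16 and 0.79. Of 8 leukocyte integrin ligands tested, 4 were higher and 1 lower, beside 29.5% and 18.8% of all genes. Among the 6 with at least 61 cultured reads 2 were higher and 1 lower, beside 18.9% and 22.3% of all genes with as many. Icam1, a ligand of the beta2 receptors, had a change of 4.08 (SE 0.81). C3, whose fragment the CD11b receptor binds, had one of 2.06 (SE 0.51) and Cdh1, E-cadherin, one of -0.91 (SE 0.15).

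Over these 6 lists together 38 of 80 genes were higher and 8 lower, beside 29.5% and 18.8% of all genes. Among the 68 with at least 61 cultured reads 26 were higher and 8 lower, beside 18.9% and 22.3%. The split of the 80 was 33 and 15 with each library centred on its median, 31 and 13 after quantile normalization and 52 and 0 when libraries were scaled to epithelial markers. All genes moved in the same direction under these scalings, to 3546 and 3833, 2992 and 5513, and 6168 and 558.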

How the data were processed

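RNA of 3 cultured and 3 tumour libraries was measured by RNA-seq. Per the submitters' processing notes, reads were aligned with HISAT to mm10, counted with HTSeq and processed with limma, with no versions given. The authors deposited log2 CPM values in the form of limma's voom, with TMM scaling per the file name. Solving this form gave whole reads, within 0.01, in 100% of values. Low genes had been left out of the table, and depth left counting error small except near 0 reads. All 13912 genes were fitted here on their log2 values as deposited, by limma (version 3.58.1, R 4.3.3) with a variance trend, and tested two-sided; a change is tumour minus cultured, and SE and 95% intervals are limma's, the intervals unadjusted. No count model was run, since the deposited unit is log2. The fit was also run on simulated reads in which few genes were changed, evenly up and down and away from 0 reads. That setting differs from these data, so the run does not vouch for the calls made here.

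Coordinates and exon lengths are from GENCODE M21 (GRCm38, the assembly of mm10), exons merged over transcripts. Libraries are numbered in the order of their labels, which share no numbers between groups. Members and lists were chosen with earlier results of these data known. The members are named, except 1 that is counted among the 35 and not reported here; values by library are given where the higher group mean was at least 4 log2 CPM, and up to 4 called genes of each pathway list with such a mean, by size of change. Alternatives were no trend, voom weights on recovered reads, 3 other scalings, log2 of CPM plus 1, a filter at 1 log2 CPM, and leaving out each library. The count among members with at least 61 cultured reads was added after seeing the data.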

Additional observations from a re-analysis of the deposited data

How the results depend on the processing

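Of 19 called members, 16 kept direction and call under all 13 alternatives in which they were tested. The exceptions were Itga8, Itga10 and Itgb6. The 16 include Itga4, Itga9, Itga11, Itgal, Itgam, Itgax, Lama1, Lama2 and Lama4, which had fewer than 61 cultured reads. Their place in the table rests in part on their tumour reads, so nothing is read from how steady their calls were. The others of the 16 were Itga1, Itga5, Itgb2, Itgb3, Itgb4, Itgb5 and Lamb2. The median change of all genes was 0.08 as deposited, -0.14 centred on the median, -0.32 after quantile normalization and 0.67 scaled to epithelial markers. The count of higher members ranged from 16 to 23 over the alternatives and was 8 among members with at least 61 cultured reads. The count of lower members was 3 after quantile normalization (Itga3, Itgae and Itgb6), 0 scaled to epithelial markers and 0 to 1 when 1 library was left out, being 0 without cultured library 1, tumour library 1 or tumour library 3. Lower genes of the 6 pathway lists numbered 15 centred on the median, 13 after quantile normalization, 0 scaled to epithelial markers and 4 to 12 when 1 library was left out, with 5 without tumour library 1 and 4 without tumour library 3. The cause of these shifts was not tested.

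Changes of sign were found in members that had not been called and in Itga8 and Itga10. Centred on the median, changes were -0.22 for Itgav, -0.0515 for Itgb1, -0.20 for Lama3, -0.0805 for Lama5 and -0.10 for Lamc1. After quantile normalization they were -0.75 for Itga10, -0.76 for Itga2b, -0.42 for Itga8, -1.67 for Itgae, -0.0560 for Itgav, -0.15 for Itgb1, -0.18 for Lama5, -0.0587 for Lamc1 and -0.94 for Lamc3. Scaled to epithelial markers they were 0.51 for Itga2, 0.32 for Itga3, 0.35 for Itga6, 0.42 for Itgb7, 0.50 for Lamb1 and 0.49 for Lamb3. Leaving out 1 library gave ranges of -0.27 to 0.0866 for Itga2, -0.49 to 0.0155 for Itga6, -0.19 to 0.15 for Itgav, -0.48 to 0.39 for Itgb7, -0.10 to 0.21 for Lama3, -0.0857 to 0.34 for Lama5, -0.24 to 0.0568 for Lamb1 and -0.23 to 0.17 for Lamb3. None of the 16 members that were not called kept both that and its direction under all 13 alternatives. No paired analysis was possible because the groups share no replicate numbers in their labels.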
